A study of Mus musculus with 9 samples.

Results

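The genes of the mouse major histocompatibility complex (MHC) and of antigen processing were followed in regulatory T cells (Tregs) of 3 organs. They were the 45 genes of the count table whose symbol starts with H2- and 10 genes chosen by name, B2m, Cd74, Ciita, Nlrc5, Tap1, Tap2, Tapbp, Psmb8, Psmb9 and Psmb10, together 55 of 49510 genes. Of the 55, 50 lie on chromosome 17 and 11 are annotated as pseudogenes of some kind. RNA was sequenced from Tregs of spleen, of mediastinal lymph node (MLN, the node that drains the heart) and of injured heart, with 3 libraries per organ. All mice were of the Foxp3-GFP strain, in which a fluorescent protein reports the Treg transcription factor Foxp3, were 8 weeks old and had undergone ischemia/reperfusion (I/R) injury 3 days earlier. The 3 groups therefore differ, per the labels, by organ alone, share the reporter and the injury, and hold no uninjured animal. Cells went through magnetic and then flow sorting, and cDNA was made with a low-input SMARTer kit. The labels leave unsaid whether replicate libraries stem from different animals or from pooled ones, so the spread on which p-values rest may be partly technical.

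Class I MHC molecules show peptides from inside the cell to CD8 T cells and consist of a heavy chain and the light chain B2m. The proteasome cuts the peptides, with Psmb8, Psmb9 and Psmb10 replacing the constitutive subunits Psmb5, Psmb6 and Psmb7 in the immunoproteasome. The transporter Tap1/Tap2 carries peptides into the endoplasmic reticulum, where tapasin (Tapbp) helps to load them. Class II molecules show peptides of ingested material to CD4 T cells and are made by B cells, dendritic cells and activated macrophages. In mice, T cells transcribe few class II genes. Cd74, the invariant chain, fills the class II groove until H2-DM exchanges its remnant for a peptide, and H2-DO, made mainly by B cells, restrains H2-DM. Ciita and Nlrc5 are the coactivators of class II and class I genes.

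The class II group and the class I group each hold members with a shared promoter element, shown here because the results turn on H2-K1, H2-DMb1, H2-DMb2 and H2-Ob. RefSeq promoters (GRCm38.p6, from 250 bases before to 50 bases after the annotated start) were found for 38 of the 55 members. The X box binds the RFX complex that recruits Ciita, and the Y box, with the letters CCAAT or ATTGG on the opposite strand, binds NF-Y. An X-like pattern made of CTA, AAC and ATG in this order, with 2 bases of any kind between neighbours, was searched on both strands and occurred in 48 of 32851 promoters, or 0.146%. It was found in 4 members, H2-Eb1, H2-DMb1, H2-DMb2 and H2-Ob. In each of them an ATTGG followed at a distance of 20 to 23 bases. CCAAT on either strand occurred in 12289 promoters, or 37.4%. The stretches below are plus strand, 5′ to 3′, and capitals mark the X-like pattern and the ATTGG.
H2-Eb1, chr17:34305761-34305837: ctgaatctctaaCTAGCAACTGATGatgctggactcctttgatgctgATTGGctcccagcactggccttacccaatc
H2-DMb1, chr17:34153082-34153158: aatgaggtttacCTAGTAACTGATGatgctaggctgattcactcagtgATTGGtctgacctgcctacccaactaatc
H2-DMb2, chr17:34145111-34145187: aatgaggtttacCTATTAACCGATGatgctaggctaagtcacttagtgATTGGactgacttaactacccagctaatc
H2-Ob, chr17:34238803-34238879: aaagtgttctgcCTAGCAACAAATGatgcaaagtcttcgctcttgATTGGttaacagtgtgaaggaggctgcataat

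Some class I promoters carry an NF-kB element, enhancer A. The palindrome GGGGA and TCCCC, with 1 base of any kind between them, was searched on both strands and occurred in 16 promoters, or 0.0487%. Of the 38 members it was found in 3, H2-K1, H2-D1 and H2-Q6, and not in other class I members such as H2-Q7, H2-T23 and B2m. It does not overlap the other patterns. Capitals mark it in the stretches below, given on the gene's strand, which is minus for H2-K1 and plus for H2-D1 and H2-Q6.
H2-K1, chr17:34000408-34000478: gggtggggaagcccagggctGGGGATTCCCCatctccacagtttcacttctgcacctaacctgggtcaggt
H2-D1, chr17:35262903-35262973: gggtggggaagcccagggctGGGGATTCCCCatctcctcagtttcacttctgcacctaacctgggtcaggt
H2-Q6, chr17:35424657-35424727: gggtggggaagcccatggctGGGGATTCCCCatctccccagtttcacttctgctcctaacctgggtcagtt
A further pattern, GAAA and GAAA with 2 bases of any kind between them, was also searched on both strands and is not shown. It occurred in 1131 promoters, or 3.44%, and among the members in those of B2m, H2-T22 and H2-T23. The patterns were chosen after these promoters had been read, and a match describes letters, not binding. Positions follow the RefSeq starts, which for H2-D1, H2-DMb1 and H2-DMb2 lie inside the longer gene models of GENCODE vM21.

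Libraries held 156194012 to 267520538 counts, and levels are given in CPM, the counts of a gene divided by its library total after scaling by trimmed mean of M-values (TMM). A library of each organ stood apart from the other pair, namely spleen 3, MLN 3 and heart 2. In heart 2 the median log2 deviation from the other heart libraries ran from -0.73 in the fifth of genes with the lowest GC content to 0.99 in the fifth with the highest, and in spleen 3 from -0.46 to 0.70. The same medians in MLN 3 were -0.25 and 0.19. Summed levels of 6 Treg marker genes were 3095, 3523 and 2976 CPM in spleen, 4527, 4347 and 2652 CPM in MLN and 1522, 1333 and 1272 CPM in heart libraries 1, 2 and 3. Foxp3 itself was at 31.2, 32.6 and 187 CPM in spleen, 42.4, 41.8 and 46.3 CPM in MLN and 8.77, 38.0 and 0.24 CPM in heart. It was thus higher in heart 2 than in spleen 1 and spleen 2. Of the 6 genes, only Ikzf2 was lower in every heart library than in all spleen libraries, and 5 were lower than in all MLN libraries. Markers of macrophages (8 genes, 8583, 5267 and 10073 CPM) were higher in every heart library than in any spleen (909, 1304 and 2320.2 CPM) or MLN library (228, 759.6 and 492 CPM). In bulk RNA, fewer cells of a type and less RNA per cell cannot be told apart.

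No member passed the test in any comparison. A gene was called where the edgeR quasi-likelihood test gave a Benjamini-Hochberg adjusted p below 0.05 over 16609 tested genes. Of the 55 members, 16 had no count in any library, which allows up to 3 counts in each, and 37 passed the filter on low counts and were tested. In the heart against the spleen 0 of 37 were called, where 0.638% of all genes were, and 6 had an unadjusted p below 0.05, all lower in the heart. That is 16.2% of the tested members, where 13.3% of all genes had such a p and 4.47% had one in the lower direction. In the heart against the MLN 0 of 37 were called, where 1.13% of all genes were. An unadjusted p below 0.05 was found for 7 (18.9%), again all lower. Of all genes 15.3% had such a p, and 5.2% had one in the lower direction. H2-Q2 was among the 7, and as it had no count in the heart, its direction was fixed. In the MLN against the spleen 0 members were called, as were 0% of all genes, and 0 had an unadjusted p below 0.05, where 5.41% of all genes did.

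Other tools called a few members, all lower in the heart. DESeq2 called 3 of 36 members (8.33%) in the heart against the spleen, where it called 13.4% of all genes, and 6 of 36 (16.7%) against the MLN, where it called 16%. These were Psmb8, Psmb9 and H2-Q2 against the spleen and, against the MLN, the same genes and H2-DMb2, H2-Ob and H2-Ke6. All were lower in the heart, a direction in which DESeq2 called 3.97% of all genes against the spleen and 4.62% against the MLN. For H2-Q2, which had no count in the heart and was tested through the other organs alone, that direction was fixed. With limma-voom 0 members were called against the spleen, where 6.87% of all genes were, and 1, Psmb8, against the MLN, where 8.02% were. In the MLN against the spleen both tools called 0 members, and 4.84% and 0.0181% of all genes.

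Members whose heart libraries all lay below the other organ were more frequent than among all genes in each heart comparison, and no test of that difference was made. Below all spleen libraries lay 6 of 37 (16.2%), H2-DMb2, H2-Ob, H2-T23, Nlrc5, Psmb8 and Psmb9, where 6.9% of all genes did. Below all MLN libraries lay 12 of 37 (32.4%), where 11.2% of all genes did. These were H2-Q2, with no count in the heart, and H2-DMb2, H2-Oa, H2-Ob, H2-M3, H2-T10, H2-T23, H2-T24, Psmb8, Psmb9, Psmb10 and H2-Ke6. Above all libraries of the other organ lay 1 member in each comparison, H2-DMb1, where 12.4% and 14.9% of all genes did. The MLN and the spleen overlapped for all 37, where 4.52% of all genes were higher and 4.56% lower in the MLN without overlap. The heart comparisons share the heart libraries, so the lists are not independent. The median fitted log2 difference of the tested members was -0.68 against the spleen and -0.64 against the MLN, beside 0.02 and 0.12 over all genes, and was the same with H2-Q2 and H2-Q3, which had no heart count, at the bound of 3 counts per library.

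Among classical class I genes, the heavy chain H2-K1 was lower on average in the heart, while B2m was not, and neither difference passed. The count table held more reads of B2m than of any other member, and all 55 together took 3.06 to 4.30% of the counts of a library. B2m (ENSMUSG00000060802, chromosome 2, 122147686 to 122153083, mm10) was at 26565, 23575 and 9679 CPM in spleen libraries 1, 2 and 3, at 26915, 24757 and 13332 CPM in the MLN and at 36203, 11308 and 32845 CPM in the heart. The lowest library of each organ was the one that stood apart, and the organs overlapped (log2 difference 0.43, SE 0.56, edgeR adjusted p = 0.924 in the heart against the spleen). H2-K1 (ENSMUSG00000061232, chromosome 17, 33996017 to 34000347) was at 592, 704 and 1463 CPM in the spleen, 877, 1042 and 620.0 CPM in the MLN and 254, 781 and 367 CPM in the heart.

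Heart 1 and heart 3 held less H2-K1 than every other library, while heart 2 lay within the range of the other organs. Its log2 difference was -0.98 (SE 0.52, edgeR adjusted p = 0.495) against the spleen and -0.86 (SE 0.52, edgeR adjusted p = 0.521) against the MLN. H2-D1 (ENSMUSG00000073411, chromosome 17, 35262730 to 35267499) was at 585, 1114 and 2488 CPM in the spleen, 704, 1053 and 734 CPM in the MLN and 338, 1967 and 532 CPM in the heart. Heart 1 and heart 3 again lay below all other libraries, and spleen 3 and heart 2 above them all. Per kilobase of transcript, the mean level of H2-K1 was 568 CPM per kb in the spleen and 289 in the heart, beside 23186 and 31146 CPM per kb for B2m. The ratio of the H2-K1 level to the B2m level on this scale was 0.0118, 0.0159 and 0.0803 in the spleen, 0.0173, 0.0224 and 0.0247 in the MLN and 0.00373, 0.0367 and 0.00594 in the heart. The ratios of heart 1 and heart 3 were the lowest of the 9, and those of spleen 3 and heart 2 the highest. Class I genes are near-identical copies in part, with 8.79% of the 50-base windows of the H2-K1 transcript and 14.3% of those of H2-D1 present in another gene, so counts may be split between them.

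**Figure D1:**
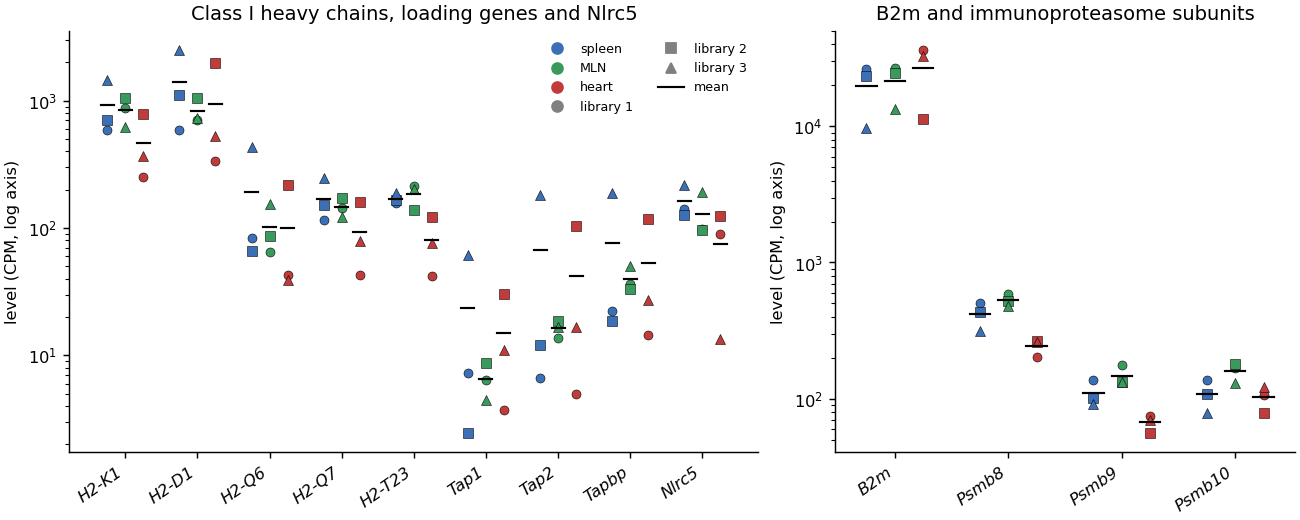
Levels of class I heavy chains, loading genes and Nlrc5 (left) and of B2m and immunoproteasome subunits (right), in CPM on log axes, by organ. Each point is 1 library (circle, square and triangle for libraries 1, 2 and 3) and the bar is the mean of 3. For Tap2 the triangle of the spleen (182 CPM) and the square of the heart (103 CPM) lie above all other points, and for Psmb8 all heart points lie below those of the other organs.

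Of the genes for non-classical class I chains, the Q and T regions were transcribed and the M region was nearly silent. Of 14 M region genes 12 had no count, H2-M6-ps had 5 counts in all, and H2-M3, whose product shows formylated bacterial peptides, was at 53.9, 37.2 and 72.1 CPM in the spleen, 64.6, 86.8 and 77.7 in the MLN and 51.2, 47.8 and 32.0 in the heart. The heart libraries lay below the MLN libraries (log2 -0.81, SE 0.38, edgeR adjusted p = 0.36) and overlapped those of the spleen. H2-T23 (ENSMUSG00000067212, chromosome 17, 36029773 to 36032855), which encodes Qa-1, the ligand of the inhibitory receptor NKG2A, was at 157, 165 and 189 CPM in the spleen and 216, 139 and 201 CPM in the MLN. In the heart it was at 41.8, 123 and 76.6 CPM, below every library of the other organs. The log2 difference was -1.08 (SE 0.42, edgeR adjusted p = 0.303) against the spleen and -1.20 (SE 0.42, edgeR adjusted p = 0.207) against the MLN.

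H2-T24 was at 61.2, 17.3 and 54.2 CPM in the spleen, 45.3, 29.1 and 28.5 CPM in the MLN and 7.20, 21.7 and 2.71 CPM in the heart. Its heart libraries lay below the MLN, and heart 2 overlapped the spleen (log2 -2.07, SE 0.81, edgeR adjusted p = 0.317 against the spleen). H2-T22, whose product binds some gamma-delta T cell receptors, was at 62.7, 47.9 and 101 CPM in the spleen, 51.8, 84.7 and 63.6 in the MLN and 54.7, 79.8 and 31.4 in the heart, and the organs overlapped. The pseudogene H2-T-ps was at 12.02, 10.05 and 13.9 CPM in the spleen, 16.9, 10.9 and 12.1 CPM in the MLN and 5.23, 13.2 and 4.44 CPM in the heart and overlapped as well. H2-T10, a close copy of H2-T22, was at 3.46, 2.69 and 22.4 CPM in the spleen, 11.3, 15.4 and 11.9 CPM in the MLN and 5.28, 8.73 and 4.42 CPM in the heart, where all heart libraries lay below those of the MLN.

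In the Q region, H2-Q7, which encodes the Qa-2 antigen, was at 115, 150.4 and 246 CPM in the spleen, 143, 173 and 121 CPM in the MLN and 42.9, 159 and 79.5 CPM in the heart. Heart 1 and heart 3 were the lowest of the 9 libraries and heart 2 overlapped the other organs (log2 -0.86, SE 0.51, edgeR adjusted p = 0.577 against the spleen). H2-Q6 was at 84.2, 66.1 and 430.2 CPM in the spleen, 65.0, 86.8 and 155 CPM in the MLN and 43.1, 218 and 39.1 CPM in the heart, so that spleen 3 and heart 2 held the highest levels. H2-Q5 was at 25.9, 32.9 and 48.5 CPM in the spleen, 24.03, 39.5 and 22.9 CPM in the MLN and 5.01, 30.2 and 13.8 CPM in the heart, again with heart 1 and heart 3 below all other libraries. Of the windows of H2-Q6 and H2-Q7, 32.0% and 40.2% occur in another gene, and 28.8% of those of H2-T23 do. H2-Q2 had no count in any heart library and lay at 0, 0 and 0.771 CPM in the spleen and 0.821, 0.0585 and 16.1 CPM in the MLN, where most came from MLN 3. H2-Q1 was at 3.59, 8.88 and 19.6 CPM in the spleen, 4.85, 6.37 and 5.15 CPM in the MLN and 2.38, 13.8 and 2.61 CPM in the heart. The other Q region genes, H2-Q3, H2-Q4 and H2-Q10, had means over the 9 libraries of 0.0633, 3.09 and 0.933 CPM. H2-T3 and H2-Bl had no count.

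The peptide transporter and tapasin genes were highest in spleen 3 and heart 2, while MLN 3 was the highest MLN library for Tapbp but not for Tap1 or Tap2. Tap1 (ENSMUSG00000037321, chromosome 17, 34187553 to 34197225) was at 7.27, 2.45 and 61.2 CPM in the spleen, 6.34, 8.72 and 4.43 CPM in the MLN and 3.70, 30.3 and 10.99 CPM in the heart. Tap2 (ENSMUSG00000024339, chromosome 17, 34203527 to 34216321) was at 6.68, 12.1 and 182 CPM in the spleen, 13.6, 18.5 and 16.6 CPM in the MLN and 4.99, 103 and 16.8 CPM in the heart. For both, spleen 3 was the highest library and heart 2 the next. Tapbp (ENSMUSG00000024308, chromosome 17, 33915899 to 33929292) showed the same order, at 22.4, 18.5 and 188 CPM in the spleen, 36.3, 33.4 and 50.5 CPM in the MLN and 14.3, 118 and 27.2 CPM in the heart.

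Relative to the mean of the other 2 libraries of the organ, Tap2 deviated by 4.26 log2 units in spleen 3 and by 3.41 in heart 2, and B2m by -1.37 and -1.61. The Tap2 transcript has 3442 bases and that of B2m 860, with 56.9% and 41.2% GC. Psmb10, with 1311 bases and 56.5% GC, deviated by -0.64 in spleen 3 and by -0.52 in heart 2. Over the 28 members at 10 CPM or more, the Spearman correlation of the deviation with transcript length was 0.64 in spleen 3, 0.64 in heart 2 and 0.11 in MLN 3, beside 0.31, 0.27 and 0.30 over 7793 genes. With GC content it was 0.24, 0.25 and -0.23 in the same order, beside 0.29, 0.38 and 0.18 over the 7793 genes. The part of GC content and length in the levels was not tested. Further genes of the class I pathway included the peptide trimmer Erap1, the chaperones Calr, Canx and Pdia3 and the proteasome activators Psme1 and Psme2. Of 16 such genes 0 were called in any comparison. Of all genes 0.638% were called in the heart against the spleen and 1.13% against the MLN. Without overlap, Fcgrt lay higher and Cd1d1 lower in the heart than in both other organs. Psme1 and Psme2b lay lower than in the MLN alone. Shares of all genes without overlap are given above.

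The immunoproteasome subunits Psmb8 and Psmb9 lay lower in every heart library than in every library of the other organs. Both genes lie in the class II region of chromosome 17, next to Tap1 and Tap2. Psmb8 (ENSMUSG00000024338, chromosome 17, 34197721 to 34201454) was at 505, 431 and 316 CPM in the spleen, 591, 518 and 481 CPM in the MLN and 203, 264 and 262 CPM in the heart. Means were 417 ± 95.2, 530.3 ± 56.0 and 243 ± 34.7 CPM (SD, n = 3 each). The log2 difference was -0.78 (SE 0.29, edgeR adjusted p = 0.276) against the spleen and -1.13 (SE 0.29, edgeR adjusted p = 0.106) against the MLN. DESeq2 called both differences, with adjusted p = 0.0232 and 0.000208, and limma-voom called the one against the MLN, with adjusted p = 0.0401.

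Psmb9 (ENSMUSG00000096727, chromosome 17, 34181987 to 34187764) was at 137, 101 and 91.5 CPM in the spleen, 176, 133 and 133 CPM in the MLN and 74.8, 55.7 and 69.8 CPM in the heart, again without overlap. Its log2 difference was -0.72 (SE 0.31, edgeR adjusted p = 0.37) against the spleen and -1.14 (SE 0.31, edgeR adjusted p = 0.121) against the MLN, and DESeq2 called both (adjusted p = 0.049 and 0.000185). Psmb10 (ENSMUSG00000031897, chromosome 8, 105935735 to 105938444) was at 138, 108 and 78.4 CPM in the spleen, 168, 180.3 and 131 CPM in the MLN and 106, 78.9 and 121 CPM in the heart. It lay below the MLN in all heart libraries and overlapped the spleen.

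Set against the constitutive subunit that it replaces, per kilobase of transcript, Psmb8 also stood lower in the heart. The ratio of the Psmb8 level to the Psmb5 level was 0.829, 0.980 and 0.876 in spleen libraries 1, 2 and 3, 0.859, 0.894 and 1.12 in the MLN and 0.400, 0.714 and 0.449 in the heart. All heart ratios lay below all others, with heart 2 the closest. Psmb9 over Psmb6 was 0.349, 0.333 and 0.644 in the spleen, 0.568, 0.401 and 0.487 in the MLN and 0.144, 0.342 and 0.218 in the heart, where heart 2 overlapped the spleen. Psmb10 over Psmb7 was 0.0694, 0.0751 and 0.106 in the spleen, 0.0955, 0.106 and 0.125 in the MLN and 0.0526, 0.119 and 0.0582 in the heart, and heart 2 lay among the highest. The ratios were chosen after the levels had been seen and carry no test. The summed level of 6 T cell markers was also lower in the heart, at 2454, 2046 and 1548 CPM. It was 2808, 3583 and 3031 CPM in the spleen and 3606, 3768 and 2719.7 CPM in the MLN. Of the 6 genes, only Cd3e was lower in every heart library than in all libraries of the other organs. Cd4 was fitted higher in the heart than in the MLN (log2 1.21, edgeR adjusted p = 0.707). The part of the makeup of the sorted cells in the Psmb8 and Psmb9 levels was not tested.

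**Figure D2:**
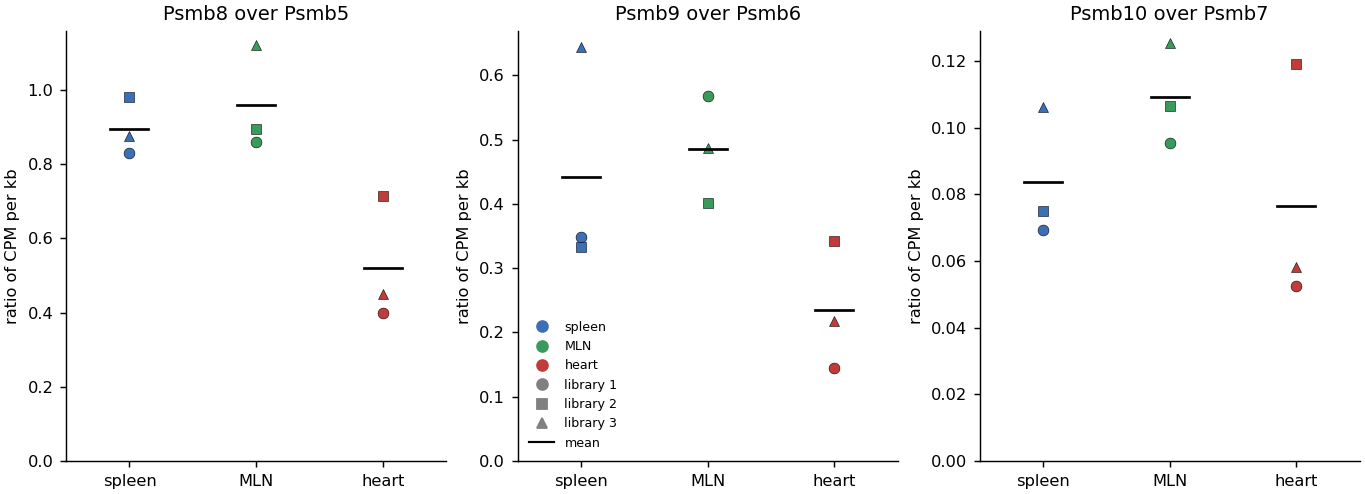
Ratio of each immunoproteasome subunit to the constitutive subunit that it replaces, in levels per kilobase of transcript, by organ. Each point is 1 library, the bar is the mean of 3 and the axes start at 0. For Psmb8 over Psmb5 the heart points lie from 0.400 to 0.714 and those of the spleen and MLN from 0.829 to 1.12.

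Cd74 and the class II chain genes H2-Aa, H2-Ab1 and H2-Eb1 were transcribed in every library of these Treg samples. Their levels overlapped between all organs. Cd74 (ENSMUSG00000024610, chromosome 18, 60803848 to 60812652) was at 6327, 10072 and 4953 CPM in the spleen, 1639, 1323 and 10683 CPM in the MLN and 3052, 5769 and 6132 CPM in the heart. H2-Aa (ENSMUSG00000036594, chromosome 17, 34282744 to 34287823), the alpha chain of I-A, was at 704, 872 and 461 CPM in the spleen, 326, 263 and 1033 CPM in the MLN and 559, 945 and 1393 CPM in the heart. The highest MLN library of both genes was MLN 3, and MLN 1 and MLN 2 were the lowest of all 9.

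The partner beta chain H2-Ab1 (ENSMUSG00000073421, chromosome 17, 34257689 to 34269419) was at 788, 1970.0 and 1144 CPM in the spleen, 458, 367 and 1205 CPM in the MLN and 959.6, 2205 and 1220.5 CPM in the heart. Its log2 difference was -0.94 (SE 0.58, edgeR adjusted p = 1) in the MLN against the spleen and 1.11 (SE 0.58, edgeR adjusted p = 0.421) in the heart against the MLN. H2-Eb1 (ENSMUSG00000060586, chromosome 17, 34305867 to 34316674), the I-E beta chain, was at 1020.5, 2412 and 1766 CPM in the spleen, 719, 619.6 and 2364 CPM in the MLN and 1281, 3306 and 2405 CPM in the heart, and all organs overlapped. In the heart against the spleen, H2-Aa differed by 0.51 log2 units (SE 0.59, edgeR adjusted p = 0.898) and H2-Eb1 by 0.43 (SE 0.61, edgeR adjusted p = 0.937). The I-E alpha gene, listed as the polymorphic pseudogene H2-Ea-ps, had 241 counts in all 9 libraries and was not tested.

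Markers of cells that make class II molecules were present in all organs, and few of the single genes passed. Of 8 B cell genes the heart was called lower for 1 against the spleen and for 2 against the MLN, of 8 macrophage genes 1 and 5 were called higher, and of 8 dendritic cell genes 0 were called in either comparison. Of all 16609 tested genes, 24 were called lower and 82 higher in the heart against the spleen, and 43 and 145 against the MLN. The summed level of 8 B cell genes was 1147, 1258 and 1045 CPM in the spleen, 628, 355 and 2234 CPM in the MLN and 80.8, 45.2 and 20.8 CPM in the heart, where the B cell kinase gene Blk had no count in any library. Within the MLN, library 3 held the highest B cell sum and also the highest levels of Cd74, H2-Aa, H2-Ab1 and H2-Eb1. The summed level of 8 dendritic cell genes was 12.8, 8.23 and 22.6 CPM in the spleen, 41.3, 11.1 and 25.3 in the MLN and 55.3, 168 and 49.4 in the heart, and the macrophage sums given above were also highest in the heart. The part of such cells in the class II levels was not tested.

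**Figure D3:**
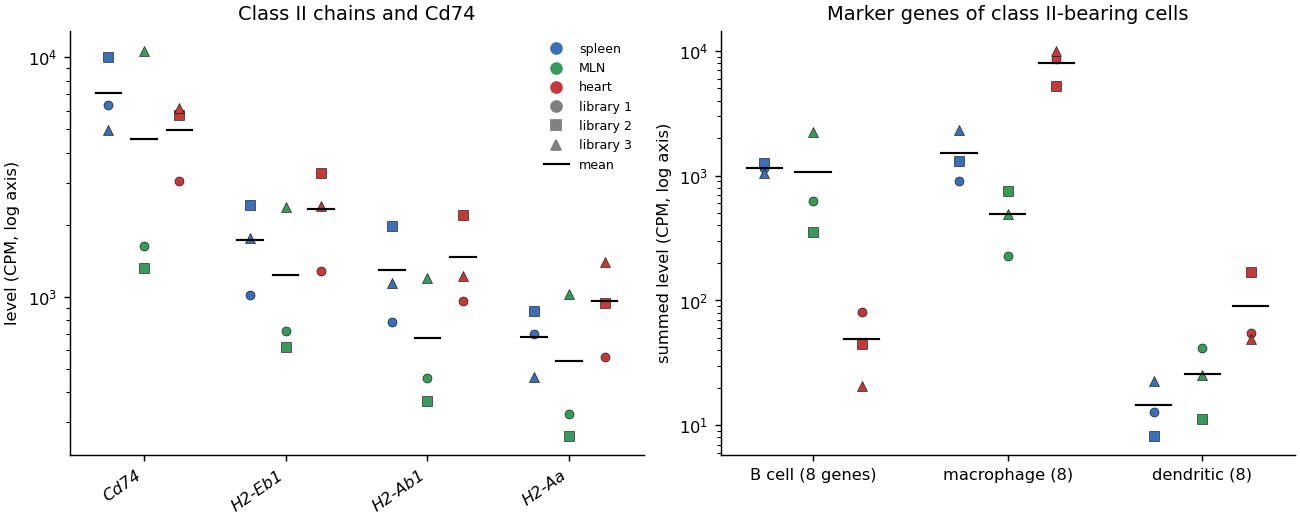
Levels of Cd74 and the class II chains (left) and summed levels of marker genes of B cells, macrophages and dendritic cells (right), in CPM on log axes, by organ. Each point is 1 library and the bar is the mean of 3. The class II points of the organs overlap, whereas the B cell sums are at most 80.8 CPM in the heart and at least 355.5 CPM in the other organs.

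The H2-DM and H2-DO genes lay apart between the heart and the lymphoid organs in both directions, with H2-DMb1 higher and H2-DMb2 and H2-Ob lower in every heart library, and none passed the edgeR test. H2-DMa (ENSMUSG00000037649, chromosome 17, 34119541 to 34139101), the alpha chain of H2-DM, was at 148, 150.0 and 85.2 CPM in the spleen, 125, 95.2 and 208 CPM in the MLN and 83.5, 89.0 and 133 CPM in the heart, with overlap of all organs. H2-DMb1 (ENSMUSG00000079547, chromosome 17, 34153072 to 34160230), a beta chain, was at 30.5, 54.9 and 73.1 CPM in the spleen, 18.2, 11.2 and 80.9 CPM in the MLN and 84.5, 188 and 91.0 CPM in the heart. Every heart library lay above all others, heart 1 and heart 3 only just above MLN 3 (log2 1.196, SE 0.76, edgeR adjusted p = 0.633 against the spleen, and 1.72, SE 0.77, edgeR adjusted p = 0.342 against the MLN).

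H2-DMb2 (ENSMUSG00000037548, chromosome 17, 34143307 to 34151555), the neighbouring beta chain gene, was at 65.3, 83.4 and 91.9 CPM in the spleen, 54.4, 32.4 and 222 CPM in the MLN and 6.23, 24.7 and 16.1 CPM in the heart. Every heart library lay below all others. The log2 difference was -2.36 (SE 0.79, edgeR adjusted p = 0.22) against the spleen and -2.71 (SE 0.80, edgeR adjusted p = 0.143) against the MLN, which DESeq2 called (adjusted p = 0.0165).

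The balance of the 2 beta chain genes separated the heart from the lymphoid organs in every library. H2-DMb2 made up 68.1, 60.3 and 55.7% of the H2-DMb1 and H2-DMb2 counts in spleen libraries 1, 2 and 3, 74.9, 74.2 and 73.3% in the MLN and 6.86, 11.6 and 14.99% in the heart. The narrow 95% Wilson intervals of these shares, 6.48 to 7.26% in heart 1 and 55.2 to 56.1% in spleen 3, cover counting error only. The share was chosen after the levels had been seen and is given without a test. The genes are close copies, with 27.2% of the 50-base windows of H2-DMb1 and 26.8% of those of H2-DMb2 present in the other, so the counts of each are uncertain. Their promoter stretches shown above differ within the X-like pattern, and a difference of letters is no measure of activity.

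H2-Oa (ENSMUSG00000024334, chromosome 17, 34092340 to 34095234), the alpha chain of H2-DO, was at 58.8, 67.1 and 25.6 CPM in the spleen, 42.7, 38.2 and 88.8 CPM in the MLN and 0.808, 13.8 and 28.8 CPM in the heart. The heart lay below the MLN, while heart 3 was above spleen 3 (log2 -1.80, SE 1.03, edgeR adjusted p = 0.546 against the spleen). H2-Ob (ENSMUSG00000041538, chromosome 17, 34238903 to 34254414), the beta chain, was at 40.3, 35.7 and 43.7 CPM in the spleen, 30.5, 28.4 and 101 CPM in the MLN and 0.0953, 5.25 and 7.22 CPM in the heart. Heart 1 was close to 0, and all heart libraries lay below all others. The log2 difference was -3.25 (SE 1.24, edgeR adjusted p = 0.296) against the spleen and -3.67 (SE 1.26, edgeR adjusted p = 0.204) against the MLN, which DESeq2 called (adjusted p = 0.0224). In the MLN all 5 genes, H2-DMa and H2-DMb1 included, were highest in library 3, the library with the highest B cell sum. The B cell sum was likewise lower in every heart library than in the other organs, and its part in the levels of H2-DMb2, H2-Oa and H2-Ob was not tested.

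**Figure D4:**
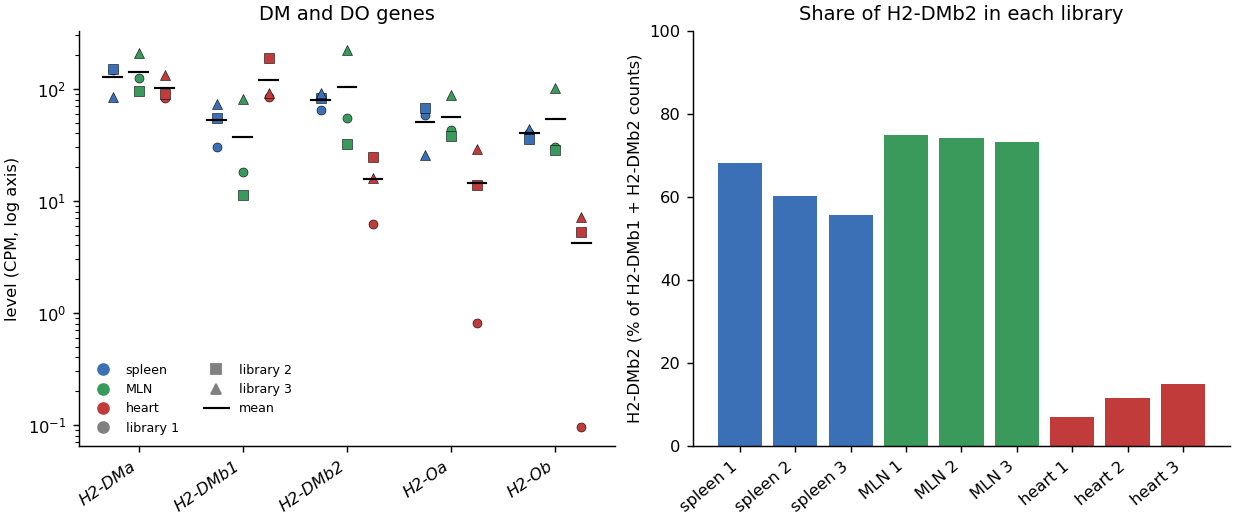
Levels of the H2-DM and H2-DO genes in CPM on a log axis (left, points for libraries, bars for means of 3) and the share of H2-DMb2 in the counts of H2-DMb1 and H2-DMb2 in each library (right, in percent from 0 to 100). The share lies between 6.86 and 14.99% in the heart libraries and between 55.7 and 74.9% in all others.

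The coactivators showed no difference between organs that passed. Ciita (ENSMUSG00000022504, chromosome 16, 10480059 to 10528418) was at 5.76, 0 and 41.7 CPM in the spleen, 1.90, 4.77 and 21.7 CPM in the MLN and 0, 36.4 and 7.43 CPM in the heart. It had no count in spleen 2 and heart 1, although these libraries held 10072 and 3052 CPM of Cd74, and its highest level in each organ was in the library that stood apart. Nlrc5 (ENSMUSG00000074151, chromosome 8, 94434356 to 94527272) was at 141, 127 and 217 CPM in the spleen, 98.3, 96.3 and 191 CPM in the MLN and 89.1, 124 and 13.5 CPM in the heart. The heart libraries lay below the spleen, by a small margin in heart 2, and overlapped the MLN (log2 -1.10, SE 0.71, edgeR adjusted p = 0.639 against the spleen and -0.77, SE 0.71, edgeR adjusted p = 0.747 against the MLN).

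Of 16 further regulators, among them the RFX and NF-Y subunits, Irf1 and Rela, 0 were called in any comparison. Of all genes 0.638% were called in the heart against the spleen and 1.13% against the MLN. Without overlap, Spi1 lay higher and Creb1 and Irf2 lower in the heart than in both other organs. Against the MLN alone, Nfkb1 lay higher and Rfxank lower. Of 19 genes of interferon gamma signalling, which raises class I and class II transcription in many cells, 1 was called, the kinase Jak2, higher in the heart (394, 449 and 477 CPM) than in the MLN (68.0, 92.4 and 115 CPM), where 1.13% of all genes were called, and 0 in the other comparisons. Of 11 measured genes of class II processing and costimulation, 2 were called, both higher in the heart than in the MLN, where 1.13% of all genes were called. These were the lysosomal proteases cathepsin L and cathepsin B. Ctsl was at 4.16, 11.1 and 18.6 CPM in the MLN, 617, 148 and 246 CPM in the heart and 11.97, 15.8 and 21.2 CPM in the spleen. Ctsb was at 196, 219.9 and 156 CPM in the MLN, 1615, 1299 and 876 CPM in the heart and 234, 295 and 665 CPM in the spleen. Both proteases are abundant in macrophages, whose marker sums were higher in every heart library, and the part of macrophages in them was not tested.

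The remaining members were low or at 0. H2-Eb2 was at 9.31, 2.00 and 13.0 CPM in the spleen, 0.288, 7.55 and 14.3 in the MLN and 0, 13.7 and 0 in the heart, with no count in heart 1 and heart 3. H2-K2, a class I pseudogene, was at 6.85, 6.78 and 19.3 CPM in the spleen, 5.43, 11.1 and 10.7 CPM in the MLN and 2.28, 10.59 and 3.999 CPM in the heart. H2-Ke6, an enzyme gene named for its place beside H2-K, was at 5.33, 15.2 and 8.89 CPM in the spleen, 17.2, 11.5 and 13.9 CPM in the MLN and 5.38, 3.08 and 4.68 CPM in the heart. It lay lower in the heart than in the MLN without overlap (log2 -1.70, SE 0.67, edgeR adjusted p = 0.277), and DESeq2 called this difference (adjusted p = 0.00622). Of its transcript windows 79.8% occur in another gene model, so its count is uncertain. The pseudogenes H2-Pa and H2-Pb had no count.

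Class I heavy chains were also described as a group, since spleen 3 and heart 2 held the highest levels of several of them within their organs. Of the 31 heavy chain genes 15 did not pass the filter, and H2-Q2 and H2-Q3, with no count in the heart, passed it through the other organs alone, so that their direction was fixed. Of the other 14, 13 had a fitted log2 difference below 0 against the spleen and 10 against the MLN, where 49.0% and 46.5% of all genes did. Their medians were -0.71 and -0.72, beside 0.02 and 0.12 over all genes. The 14 are not independent, since 44.7% of the 50-base windows of H2-T22, 42.95% of those of H2-T10 and 40.2% of those of H2-Q7 occur in another gene. Reads of 1 gene may thus be counted for several. Among the 14, H2-T-ps, H2-Q5 and H2-T10 are annotated as pseudogenes of some kind.

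With offsets for GC content and transcript length, added after the levels had been seen, 14 and 13 of the 14 lay below 0, with medians of -1.12 and -1.21. The offsets also moved the median of all genes to -0.49 and -0.45, with 64.0% and 61.9% of all genes below 0. Relative to all genes, the heavy chain medians were -0.63 and -0.76 with the offsets and -0.74 and -0.84 without them. With the offsets H2-K1 was called in the heart against the MLN (log2 -1.56, edgeR adjusted p = 0.0484) as the 1 called member of 37 (2.70%), where 2.66% of all genes were called, 1.18% in the lower direction. Relative to all genes this difference was -1.11, beside -0.98 without the offsets. Against the spleen the offsets gave H2-K1 a log2 difference of -1.38 (edgeR adjusted p = 0.0715), or -0.89 relative to all genes, and 0 members were called, where 1.78% of all genes were, and 0.803% in the lower direction.

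Without spleen 3, MLN 3 and heart 2, 13 of the 14 heavy chains lay below 0 in each heart comparison, where 46.4% and 47.4% of all genes did, with medians of -1.06 and -1.25 and 0 called. In the MLN against the spleen the median of the 14 was -0.27 in the test of all libraries, -0.08 with the offsets and 0.12 without the 3 libraries. Markers of other cells moved with the heart comparisons. The summed level of 6 fibroblast genes was 18780.4, 2424 and 4292 CPM in the heart, against 2.78, 1.07 and 1.89 CPM in the spleen and 3.67, 1.47 and 16.4 CPM in the MLN, while the Treg and T cell sums given above were lower in every heart library. The part of these cells in the class I levels was not tested.

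**Figure D5:**
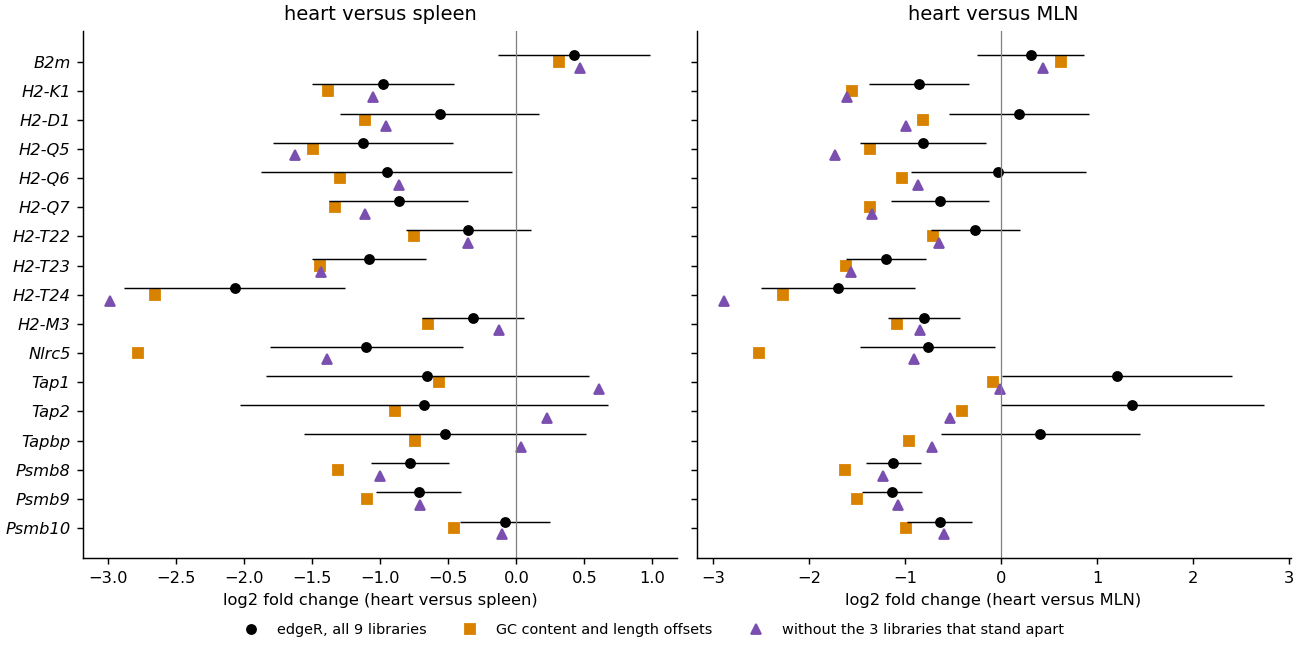
Fitted log2 differences of class I pathway genes in the heart against the spleen (left) and against the MLN (right). Circles with SE bars are the edgeR fit of all 9 libraries, squares the fit with GC content and length offsets and triangles the fit without the 3 libraries that stand apart, and the line marks 0. The squares include the shift of all genes by the offsets, whose median lay at -0.49 (left) and -0.45 (right). H2-K1, H2-T23, Psmb8 and Psmb9 lie below 0 in all 3 fits of both panels, while H2-D1 (right panel) and Tap1, Tap2 and Tapbp (both panels) change sign between fits.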

How the data were processed

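The values are raw read counts per gene, as the authors deposited them, in 1 table for 9 Treg libraries of 3 organs. Per the submitters' processing notes, reads were handled with HTSeq 0.6.0, HISAT2 and CASAVA 1.8.2 on the build mm10. No source used here gives the strand option or annotation, so counts of overlapping genes and near-identical copies are uncertain. All columns were used, and 0 columns of per-sample values were left out.

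The test was edgeR 4.0.16 (R 4.3.3), after its filter (minimum count 10, minimum total 15) and TMM scaling. All 9 libraries entered 1 robust quasi-likelihood fit with organ as the only factor (6 residual degrees of freedom). Two-sided p-values were adjusted by Benjamini-Hochberg over 16609 genes, with a threshold of 0.05. SE values of log2 differences derive from the F statistic. Simulated counts were used to test the fit. DESeq2 1.42.0 and limma 3.58.1 (voom) were alternatives. Of the table's genes, 49326 were found in GENCODE vM21, which gave coordinates, transcript lengths and GC content, and 84 symbols are shared by several genes.

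The depth of 156194012 to 267520538 counts makes counting error small, and the median biological coefficient of variation was 101.5%. Every pair of libraries of 1 organ differed by more than sampling noise, and all 9 were kept as separate samples.

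The members and lists were chosen with earlier results of these data known. Named genes are the classical, class II, loading, proteasome and regulator members, non-classical members of at least 10 CPM on average and any called member. The other members, and listed genes outside the rule, were named after their values were seen. Marker lists covered T cells, Tregs, B cells, dendritic cells, macrophages, endothelial cells and fibroblasts. Endothelial sums were 90.2, 119 and 217 CPM in the spleen, 94.3, 110.0 and 125 in the MLN and 1292, 406 and 474 in the heart. Of 15 listed class II partners, 11 symbols were found in the table.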

Additional observations from a re-analysis of the deposited data

How the results depend on the processing

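No member was called in the MLN against the spleen under any of the 20 alternatives, of which 3 (edgeR without robust estimation, offsets for GC content and length, and a fit without spleen 3, MLN 3 and heart 2) were chosen after seeing the data. Against the spleen DESeq2 called 3 members in the heart. Against the MLN limma-voom called 1, DESeq2 6 and the fit with offsets 1, and all other alternatives called 0 members. Leaving out 1 library at a time, in a pooled fit that assumes the arm of 2 to vary like the others, gave 0 members in every comparison. Over all genes these fits gave 0 to 111 calls in the heart against the spleen, 0 to 233 against the MLN and 0 to 0 in the MLN against the spleen.

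All genes called in the heart against the spleen, 106 in the test of all libraries, were 164 with a stricter filter (1 CPM in 3 libraries), 234 with both organs fitted alone, 1141 with limma-voom, 2408 with DESeq2, 295 with the offsets and 3 without the 3 libraries. The 188 calls against the MLN became 322, 479, 1332, 2790, 441 and 5 in the same order. In the MLN against the spleen limma-voom called 3 genes and DESeq2 867, against 0. The cause of these shifts was not tested. With the replicate number as a block 0 genes and 0 members were called in the heart comparisons, but no label gives the numbers a shared origin. Deviations of same-numbered libraries correlated from -0.127 to 0.114, and not every library correlated best with its own number (spleen 3 and heart 2 at 0.239).

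Of the fitted directions of the 37 tested members, 13 changed in at least 1 alternative in the heart against the spleen, 12 against the MLN and 21 in the MLN against the spleen, among them H2-D1, Tap1, Tap2 and Tapbp in each comparison, for which only levels are given. The log2 differences printed for named members kept their direction, but they were chosen with this known. That of Psmb8 against the MLN ranged from -1.63 to -1.01 and that of H2-K1 from -1.61 to -0.56. Of the genes called in the heart against the spleen 82 were higher and 24 lower, but 47 and 25 on library totals without scaling and 162 and 133 with the offsets. Against the MLN the split was 145 and 43, and 245 and 196 with the offsets, which moved the median of all genes as given above. DESeq2 moved that median to 0.15 and 0.29.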
